A study of Mus musculus with 14 samples.

Results

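Binding sites of GATA1 and GATA2 in hematopoietic progenitors (HP) were compared site by site. The members were the 250 GATA1 peaks and the 530 GATA2 peaks of this stage, out of 158488 peaks in the 14 lists of the series. Each peak was 400 bp wide. A GATA1 peak and a GATA2 peak that overlapped by at least 1 bp were counted as 1 shared site, which gave 676 sites in 3 classes: 146 bound by GATA1 only, 104 shared and 426 bound by GATA2 only. "Only" here means that no peak of the other list lay at the site.

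Both lists came from chromatin immunoprecipitation followed by sequencing (ChIP-seq) of mouse embryonic stem (ES) cells that had been differentiated in culture and sorted for CD41, the surface marker of the first committed blood cells. All samples were of strain 129, derived from a single ES cell line with a Brachyury-driven GFP reporter, and the labels name no treatment. The antibodies were Gata1 AbCam ab11963 and Gata2 Santa Cruz sc267, and the HP stage was also profiled for C/EBPβ, PU.1 (encoded by Spi1), RUNX1 and GFI1B. The study tested further factors at this stage that were not analysed here, so that counts of other HP factors and of HP lists cover only these. Each factor had 1 list at this stage, with no replicates, so that every test below compares the peaks of 2 libraries and covers counting error only. The authors set the calling threshold by eye for each list, after viewing known reference genes. Counts at well-known blood genes may therefore not be independent of the calling. The threshold of the GATA1 list was the stricter one. A site called for GATA2 only can therefore also carry GATA1 signal below the threshold, and the reverse holds too. The lists hold positions without heights or read counts, so the depth behind a site is unknown. The labelled cell type was not checked here against expression of its markers, which the study measured by RNA sequencing.

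GATA1 and GATA2 are zinc finger proteins that recognise the same short DNA word, GATA. GATA2 is needed for the formation and maintenance of blood stem and progenitor cells and is also active in endothelium. GATA1 drives red cell and megakaryocyte development, and during erythroid maturation it takes the place of GATA2 at many shared elements, a process known as the GATA switch. CD41 positive progenitors are cells in which both factors can be present.

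Windows of 101 bp from sites near transcription factors of stem and progenitor cells give examples of each class at the level of sequence. Up to 3 sites per class were taken, ordered by how many of the other HP factors were bound there and then by the number of GATA words, and windows that touched an annotated exon were passed over. Each window was centred on the GATA word nearest to the peak centre, or on the peak centre where the peak held none, so that a word in a window follows from the choice. All are read on the plus strand of GRCm38. Capitals mark a GATA word, AGATAA or TGATAA, or its reverse complement, TTATCT or TTATCA. The GATA1 only sites lay in an intron of Lyl1, in an intron of Nfix with Lyl1 as the nearest start site, and 64052 bp upstream of Lmo2.
Lyl1, GATA1 only, chr8:84703554-84703654: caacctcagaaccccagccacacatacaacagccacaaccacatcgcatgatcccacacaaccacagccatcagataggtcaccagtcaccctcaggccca
Lyl1 (intron of Nfix), GATA1 only, chr8:84730861-84730961: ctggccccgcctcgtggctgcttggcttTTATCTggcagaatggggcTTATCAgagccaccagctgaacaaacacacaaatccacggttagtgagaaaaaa
Lmo2, GATA1 only, chr2:103893938-103894038: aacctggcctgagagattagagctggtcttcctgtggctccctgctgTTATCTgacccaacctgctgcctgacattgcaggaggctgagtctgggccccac
The shared sites lay in an intron of Evi5 upstream of Gfi1, 146 bp upstream of Nfe2 and 20795 bp upstream of Cbfa2t3.
Gfi1 (intron of Evi5), shared, chr5:107759264-107759364: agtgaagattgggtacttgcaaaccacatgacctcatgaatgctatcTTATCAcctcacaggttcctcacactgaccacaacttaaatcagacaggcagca
Nfe2, shared, chr15:103258495-103258595: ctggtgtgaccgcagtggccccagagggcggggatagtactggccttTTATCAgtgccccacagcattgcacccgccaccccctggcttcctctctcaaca
Cbfa2t3, shared, chr8:122719851-122719951: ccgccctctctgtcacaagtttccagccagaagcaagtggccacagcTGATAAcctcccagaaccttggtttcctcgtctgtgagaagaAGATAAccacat
The GATA2 only sites lay 1829 bp upstream of Cbfa2t3, in an intron of Runx1 and in an intron of Zfpm1.
Cbfa2t3, GATA2 only, chr8:122700899-122700999: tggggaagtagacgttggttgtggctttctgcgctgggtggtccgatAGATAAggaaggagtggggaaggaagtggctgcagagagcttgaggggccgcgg
Runx1, GATA2 only, chr16:92801694-92801794: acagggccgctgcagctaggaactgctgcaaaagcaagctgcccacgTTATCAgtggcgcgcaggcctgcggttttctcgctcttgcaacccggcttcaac
Zfpm1, GATA2 only, chr8:122282864-122282964: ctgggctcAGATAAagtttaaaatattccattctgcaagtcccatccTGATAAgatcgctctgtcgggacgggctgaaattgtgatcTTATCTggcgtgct
The window in the Lyl1 intron held neither AGATAA nor TGATAA, and neither did the rest of that peak. It did hold AGATAG, a related word that was counted only in an alternative described below. Elsewhere too, a site said to hold no GATA word lacks AGATAA and TGATAA but can hold related words.

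A further 6 windows were chosen after the gene lists had been counted, because they stand for the erythroid and the endothelial genes described below. The GATA1 only sites belong to the erythroid genes E2f2, Sptb and Trim10.
E2f2, GATA1 only, chr4:136178087-136178187: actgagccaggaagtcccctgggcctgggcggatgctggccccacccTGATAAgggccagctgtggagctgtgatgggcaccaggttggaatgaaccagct
Sptb, GATA1 only, chr12:76673893-76673993: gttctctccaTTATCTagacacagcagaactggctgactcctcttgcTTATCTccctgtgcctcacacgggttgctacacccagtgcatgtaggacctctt
Trim10, GATA1 only, chr17:36869364-36869464: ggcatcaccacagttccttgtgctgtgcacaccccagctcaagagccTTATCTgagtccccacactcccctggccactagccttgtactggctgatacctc
The GATA2 only sites belong to the endothelial genes Kdr and Flt1 and to Sox7, whose site lies in an intron of Pinx1.
Kdr, GATA2 only, chr5:75962379-75962479: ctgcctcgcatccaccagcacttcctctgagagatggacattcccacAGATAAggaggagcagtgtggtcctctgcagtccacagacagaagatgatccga
Flt1, GATA2 only, chr5:147658038-147658138: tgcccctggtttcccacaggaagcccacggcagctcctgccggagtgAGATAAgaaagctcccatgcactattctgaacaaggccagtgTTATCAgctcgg
Sox7 (intron of Pinx1), GATA2 only, chr14:63908670-63908770: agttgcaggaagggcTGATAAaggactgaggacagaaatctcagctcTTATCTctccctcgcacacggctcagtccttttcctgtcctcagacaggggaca

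Shared sites made up 41.6% of the GATA1 list (95% Clopper-Pearson interval 35.4% to 48%) but 19.6% of the longer GATA2 list (16.3% to 23.3%). Where both factors were called, they were called at nearly the same place. The centres of the paired peaks were a median of 19.5 bp apart (quartiles 7.75 and 43 bp), 86 of the 104 pairs (82.7%) lay within 50 bp, and the widest pair was 131 bp apart, so that every pair shared at least 269 bases. Demanding 200 bp of overlap therefore left the classes as they were, and counting peaks with a gap of up to 1 kb as shared gave 145 GATA1 only, 105 shared and 424 GATA2 only sites. Most sites called for 1 factor alone had no peak of the other list within 10 kb. Whether they lay nearer to each other than randomly placed peaks would was not tested. The nearest GATA2 peak was a median of 612 kb from a GATA1 only site, with 9 of 146 within 10 kb, and the nearest GATA1 peak was a median of 2231 kb from a GATA2 only site, with 11 of 426 within 10 kb.

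The sites were then assigned to the coding gene with the nearest transcription start site (TSS), and distances are given from that TSS, which can be an internal one, unless stated otherwise. GATA1 peaks were nearest to 232 genes, which is 1.10% of the 21000 coding genes, and GATA2 peaks to 489 genes, or 2.33%. Both lists had 104 of these genes in common, 44.8% of the GATA1 genes and 21.3% of the GATA2 genes. Of these, 97 had a shared site. Both a GATA1 only and a GATA2 only site were found at 11 genes, and 7 of the 11, Ccdc85c, Dab2ip, Fam169a, Mki67, Mrtfa, Mvb12b and Sfi1, had no shared site.

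A total of 6 gene lists were read against these background shares. Among transcription factors of stem and progenitor cells, 9 of 29 (31%) were nearest to a GATA1 peak and 9 (31%) to a GATA2 peak, and 8 of them were in both groups. These 8 were Cbfa2t3, Gfi1, Hhex, Lyl1, Nfe2, Runx1, Tal1 and Zfpm1, and each had at least 1 shared site. Lmo2, an adaptor protein of the TAL1 complex, had a GATA1 only site alone, 64052 bp upstream. Erg, an ETS factor, had a GATA2 only site alone, 12577 bp upstream. The rest of the 29 were not the nearest gene to any site. With the TSS of all transcripts the GATA1 count was 6, without Gfi1, Lmo2 and Zfpm1, and the GATA2 count 8, without Gfi1. When a site had to lie within a gene or 10 kb of it, the GATA1 count was 8, with Gfi1b and without Gfi1 and Lmo2, and the GATA2 count 7, without Erg and Gfi1. No site had Gata1 or Gata2 themselves, Spi1 or Gfi1b as its nearest gene. In its HP network the paper places GATA1 at the Gata2 locus and both GATA factors at Gfi1b and Cebpb. That assignment of peaks to loci was not repeated here, so the absence of a nearest site does not mean absence of binding.

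Of 39 matched erythroid genes, 7 (17.9%) were nearest to a GATA1 peak, against 1.10% of all coding genes, and 0 to a GATA2 peak, against 2.33%. All 7 sites were GATA1 only, and the rest of the list were not the nearest gene to any site. The difference between the factors was not tested. At 2.33% a list of 39 genes would hold few or none, so the count of 0 for GATA2 is near the background. Alas2, Cpox and Ppox encode enzymes of heme synthesis, Alas2 the erythroid enzyme of its initial step. The Alas2 site lay in an intron 2405 bp downstream of the TSS and held 2 GATA words, the Cpox site was centred 10 bp upstream of the TSS with 2 words, and the Ppox site 158 bp downstream, in the UTR, with 1 word. The site at Epor, the erythropoietin receptor, lay in an intron 924 bp downstream of the TSS and held no GATA word. Sptb, which encodes the red cell membrane protein beta-spectrin, had an intronic site with 3 words at 36605 bp. Trim10, an erythroid RING finger protein, had its site 147 bp upstream, and the site of E2f2, a cell cycle regulator of erythroblasts, lay within the gene, in an intron 5839 bp downstream of its first TSS and 2669 bp upstream of an internal one. Only the E2f2 site of the 7 overlapped a peak of another HP factor, that of RUNX1. The globin genes of the list were not the nearest gene to any site of either factor. Sites near the globin genes but assigned to a neighbouring gene were not looked for, so this count does not describe binding across those loci. Gypc, a red cell glycophorin gene outside the list and looked up after the counts were known, had 2 shared sites, 17424 and 21525 bp downstream of its TSS.

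Of 30 endothelial genes, 6 (20%) were nearest to a GATA2 peak, against 2.33% of all coding genes, and 0 to a GATA1 peak, against 1.10%. The 7 sites involved were all GATA2 only, and here too the difference between the factors was not tested. At 1.10% a list of 30 genes would hold few or none, so the count of 0 for GATA1 is near the background. Kdr (Flk1) and Flt1, both receptors for vascular endothelial growth factor (VEGF), had intronic sites, at 16036 bp in Kdr and at 4391 and 67929 bp in Flt1. The Kdr site, with 3 GATA words, overlapped an HP PU.1 peak and both Flt1 sites overlapped an HP GFI1B peak. The site of Sox7, a SOX factor of early endothelium, also at a GFI1B peak, was 34974 bp upstream and held 3 words. Hey1, a target of Notch signalling, had its site 99737 bp upstream with no GATA word, and Nrp1, a VEGF co-receptor, 396000 bp upstream. Erg, which is also in the list of stem and progenitor factors, was the sixth gene, with its site at -12577 bp. Plvap, an endothelial gene outside the list and likewise looked up afterwards, had a GATA1 only site 86 bp upstream of its TSS. This count depended on the assignment to genes: Kdr and Flt1 alone remained when a site had to lie within a gene or 10 kb of it, and Erg, Flt1 and Sox7 when the TSS of all transcripts were used. The 7 erythroid genes were the same under all 3 assignments.

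Of 30 megakaryocyte and platelet genes, 2 (6.67%) were nearest to a GATA1 peak, against 1.10% of all coding genes, and 3 (10%) to a GATA2 peak, against 2.33%. Gp1ba, a subunit of the platelet receptor for von Willebrand factor, had a shared site centred 56 bp upstream of its TSS with 2 GATA words. Itga2b, which encodes CD41, the marker used to sort these cells, had a GATA2 only site 301 bp upstream, at a PU.1 peak. Thbs1 had a GATA2 only site at -45297 bp and F2rl2 a GATA1 only site at -25225 bp. Under both other assignments F2rl2 and Thbs1 were lost, which left Gp1ba as the 1 gene for GATA1, and Selp was added for GATA2 when a site had to lie within a gene or 10 kb of it. Among 30 myeloid genes, Cebpe, a factor of granulocyte maturation, had a shared site 6164 bp downstream that also carried C/EBPβ, RUNX1 and GFI1B, and Ly86 had a GATA2 only site at 164277 bp. These were 1 gene for GATA1 (3.33%) and 2 for GATA2 (6.67%), and Ly86 was lost under both other assignments. None of the 19 matched genes of mast cells and basophils was nearest to a peak of either list, which is near the background for so short a list. The plot of the 6 gene lists sets these counts side by side.

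**Figure D1:**
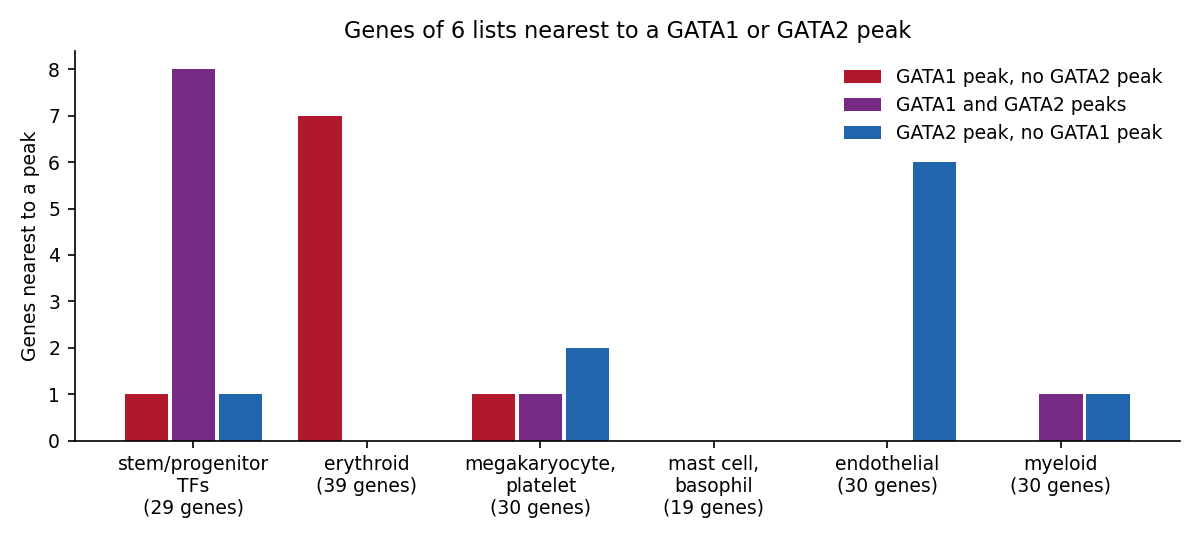
Number of genes of each list that were the nearest coding gene to a GATA1 peak, to both kinds of peak or to a GATA2 peak (vertical axis, genes; the number of genes looked at stands under each list). The 7 erythroid genes are all in the GATA1 group, the 6 endothelial genes all in the GATA2 group, and 8 stem and progenitor factors have both.

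Most genes had a single site. Of 617 genes, 45 had at least 2 sites and 8 had at least 3. Zfpm1, which encodes FOG1, the cofactor that binds the GATA proteins directly, and Cbfa2t3, which encodes the corepressor ETO2, had 5 each. In Zfpm1 all sites were intronic. A GATA2 only site lay 759 bp downstream of the TSS, shared sites at 2693, 27393 and 31378 bp, and a GATA1 only site at 39713 bp, and 4 of the 5 held 3 GATA words, the GATA1 only site 2. In Cbfa2t3, measured from its coding TSS farthest upstream, the GATA2 only sites lay at -309 and -1829 bp and the shared sites at -20795 and -21444 bp, while the GATA1 only site lay on the other side, in an intron 13453 bp downstream. Gse1 had 3 shared sites, all of them also at RUNX1 and GFI1B peaks, and a GATA1 only site. Lyl1 had a shared site in its UTR, 215 bp from the TSS, and 2 GATA1 only sites. Btg2, an antiproliferative gene, had 3 GATA2 only sites between -13775 and 7418 bp. At Sfi1 (1 GATA1 only and 3 GATA2 only sites) 3 of 4 peaks held no GATA word. None of the peaks assigned to Esp38 (1 site of each class) held one. These lay between 101915 and 106058 bp upstream of Esp38, so its panel does not show binding close to that gene. They were found in 6 lists (GATA1 only), 11 lists (shared) and 4 lists (GATA2 only), and whether they reflect GATA binding was not tested.

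**Figure D2:**
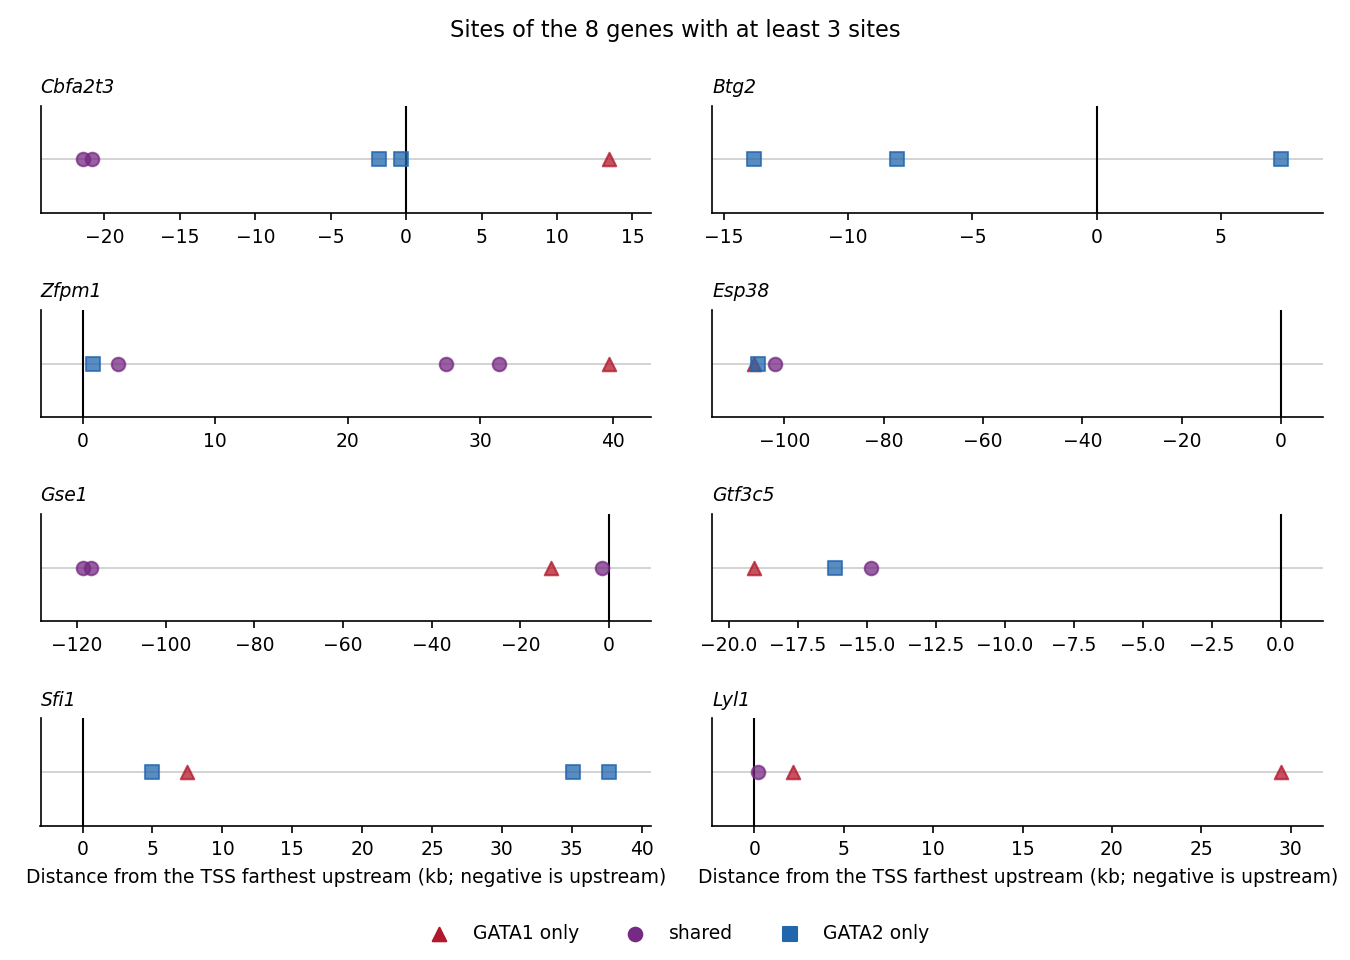
Distance of each site from the coding TSS of its gene that lies farthest upstream (horizontal axes, kb, negative values upstream, a vertical line at the TSS) for the 8 genes with at least 3 sites, 1 gene per panel with its own scale. Triangles are GATA1 only, circles shared and squares GATA2 only sites. In Cbfa2t3 the shared and GATA2 only sites are upstream of the TSS and the GATA1 only site is downstream, at 13.5 kb, and in Zfpm1 all sites are downstream.

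Some sites near a known regulator were assigned to a neighbouring gene. Looked for after the assignment, 9 sites lay within 100 kb of the TSS of a listed transcription factor but nearer to another gene. The 3 sites assigned to Gtf3c5 lay between that gene and Gfi1b, downstream of the latter: a GATA1 only site at 19.6 kb from the Gfi1b TSS, a GATA2 only site at 22.5 kb and a shared site at 23.9 kb. All 3 overlapped a peak of GFI1B, the product of that gene. A shared site at Pdzk1ip1 lay 38.1 kb downstream of the Tal1 TSS and carried RUNX1. Myb had GATA2 only sites at -67.7 and 93.6 kb, and Klf1 had a GATA1 only site at 69.2 kb, in an intron of Prdx2. Of 3 genes at which the study placed control regions, Zfpm1 is described above, Nfe2 was bound at a shared site 146 bp upstream that carried C/EBPβ, PU.1 and RUNX1, and Hhex at a shared site in an intron, 939 bp downstream of the TSS, at a GFI1B peak. The control region at Nfe2 is named for a position several kb from the gene's start, which is not that of this site.

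The share of promoter sites did not pass the test in any pair of classes. The peak centre lay within 2 kb of a coding TSS at 31 GATA1 only sites (21.2%), 28 shared sites (26.9%) and 116 GATA2 only sites (27.2%). GATA1 only and GATA2 only sites differed by -6 percentage points, with a Newcombe 95% interval of -13.3 to 2.36 (Fisher's exact test, two-sided, adjusted p 0.341; 0.547 and 1 for the other pairs; all adjusted p-values of shares are Benjamini-Hochberg values over 60 tests, 20 features in 3 pairs of classes). Intergenic positions held 41.8% of GATA1 only, 55.8% of shared and 54% of GATA2 only sites, and introns 54.1%, 36.5% and 41.1%. A separate measure counted sites within a coding gene and included some that are called intergenic here. By that measure, 63% of GATA1 only and 52.6% of GATA2 only sites lay in a coding gene. The difference did not pass the threshold (adjusted p 0.0843). The median distance from the TSS was 9282, 12277 and 13028 bp in the 3 classes.

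RUNX1 and GFI1B were found more often where GATA1 and GATA2 were both called than at sites of either alone. Of the shared sites, 75% overlapped a peak of at least 1 of the other 4 HP factors, against 44.5% of GATA1 only and 38.5% of GATA2 only sites. GFI1B, a zinc finger repressor that works with GATA1 in erythroid and megakaryocytic cells, was found at 56 of 104 shared sites (53.8%), 36 GATA1 only sites (24.7%) and 64 GATA2 only sites (15%). Shared sites exceeded GATA1 only sites by 29.2 points (interval 17 to 40.4, adjusted p 2.5e-05) and GATA2 only sites by 38.8 points (28.6 to 48.6, adjusted p 1.5e-13). RUNX1, which is required for blood cells to emerge from endothelium, was found at 45 shared sites (43.3%), 23 GATA1 only sites (15.8%) and 45 GATA2 only sites (10.6%). The shared class was 27.5 points above GATA1 only sites (16.2 to 38.3, adjusted p 2.5e-05) and 32.7 points above GATA2 only sites (23 to 42.6, adjusted p 1.0e-11). RUNX1 and GFI1B were found together at 30 shared sites (28.8%), 6 GATA1 only sites (4.11%) and 14 GATA2 only sites (3.29%). At least 2 of the 4 factors were present at 42.3%, 10.3% and 12% of sites.

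Between the sites called for a single GATA factor, GFI1B and PU.1 differed in opposite directions. GFI1B was found more often at GATA1 only sites, by 9.63 points (2.34 to 17.8, adjusted p 0.0422). Among distal sites, more than 2 kb from a coding TSS, this difference did not pass the threshold (7.48 points, adjusted p 0.203). Nor did it when GFI1B within 1 kb counted (8.91 points, adjusted p 0.0544). PU.1, an ETS factor of myeloid and lymphoid cells that binds GATA1 and is antagonised by it, was found at 15 GATA1 only sites (10.3%), 24 shared sites (23.1%) and 81 GATA2 only sites (19%). The difference of GATA1 only minus GATA2 only sites was -8.74 points (-14.4 to -1.84, adjusted p 0.0462), and shared sites were 12.8 points above GATA1 only sites (3.55 to 22.6, adjusted p 0.0309). The first of these did not pass the threshold with a gap of 1 kb counted as shared (-8.52 points, adjusted p 0.0574). Among promoter sites, a subset chosen after the data were seen, it was 0.612 points. Shared and GATA2 only sites differed in PU.1 by 4.06 points (-4.04 to 13.7, adjusted p 0.524). The calls for GFI1B and PU.1 between the single classes and for PU.1 between shared and GATA1 only sites were lost without the 9 sites that overlap a mesoderm (MES) list, where the differences were 9.17, -8.66 and 10.4 points and the adjusted p-values 0.0511, 0.0511 and 0.0757. For RUNX1 the 2 single classes differed by 5.19 points (-0.807 to 12.4, adjusted p 0.215). For C/EBPβ, found at 5.48% of GATA1 only, 14.4% of shared and 8.69% of GATA2 only sites, none of the 3 pairs passed the threshold (adjusted p 0.0673, 0.207 and 0.462).

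**Figure D3:**
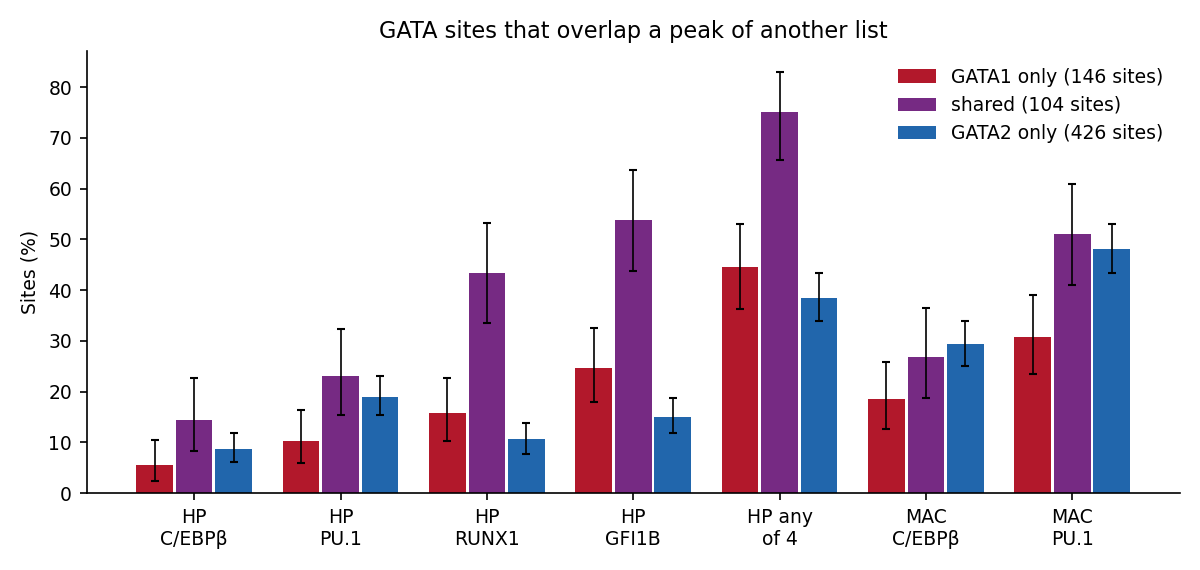
Share of sites of each class (vertical axis, %) that overlap a peak of the list named below, at the HP or the macrophage (MAC) stage. Bars show 146 GATA1 only, 104 shared and 426 GATA2 only sites, with 95% Clopper-Pearson intervals. Shared sites stand above both other classes for RUNX1 and GFI1B, and GATA1 only sites stand lowest for PU.1 at both stages.

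The same overlaps were also counted as combinations at each site, which is a description and not a separate result. Of the GATA1 only sites, 81 (55.5%) carried none of the 4 factors, and the most frequent set was GFI1B alone, at 25 sites. Of the GATA2 only sites, 262 (61.5%) carried none, and PU.1 alone was the most frequent set, at 48 sites. In the shared class 26 sites (25%) carried none, 20 carried GFI1B alone and 17 carried RUNX1 with GFI1B. Read from the other side, GATA sites were a small part of each list. Of the 977 RUNX1 peaks, 4.61% overlapped both a GATA1 and a GATA2 peak, 4.61% a GATA2 peak alone and 2.35% a GATA1 peak alone. Of the 2018 GFI1B peaks these shares were 2.78%, 3.22% and 1.78%, and of the 10943 PU.1 peaks 0.219%, 0.74% and 0.137%.

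Peaks of all 4 other factors were present at 4 sites, and all 4 were shared sites, so that these positions were in all 6 HP lists. The site assigned to Gfi1, a repressor related to GFI1B, lay in an intron of Evi5, 33536 bp upstream, held 3 GATA words and was found in 11 of the 14 lists. The other 3, nearest to Axin2, Rpp21 and Esp38, held no GATA word and were found in 10, 14 and 11 lists, which include stages before blood formation. The 6 shared sites that overlapped a GATA2 peak of the earlier hemangioblast (HB) stage included 3 of these, Gfi1, Rpp21 and Esp38. The others were nearest to Pdzk1ip1, Pgk1 and Taf9b, and the sites at Rpp21, Esp38 and Pgk1 held no GATA word. The HB list is short, with 97 peaks, of which 6 (6.19%) overlapped an HP GATA1 peak and 6 an HP GATA2 peak. No GATA1 only and no GATA2 only site overlapped an HB GATA2 peak, 0 of 146 and 0 of 426 (adjusted p against shared sites 0.0204 and 3.8e-04, Fisher's exact test). Sites found in at least 6 lists numbered 2 of 146 GATA1 only, 23 of 104 shared and 10 of 426 GATA2 only sites. A shared site is in both HP GATA lists by definition, so these counts do not compare the classes on equal terms.

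Macrophages were grown from CD41 positive cells, and their PU.1 and C/EBPβ lists give a later readout of the same sites. MAC PU.1 peaks lay at 45 GATA1 only sites (30.8%), 53 shared sites (51%) and 205 GATA2 only sites (48.1%). GATA1 only sites differed from GATA2 only sites by -17.3 points (-25.7 to -8.1, adjusted p 0.00198), and shared sites exceeded GATA1 only sites by 20.1 points (7.81 to 31.8, adjusted p 0.008). Shared and GATA2 only sites differed by 2.84 points (-7.75 to 13.4, adjusted p 0.811). MAC C/EBPβ peaks lay at 18.5%, 26.9% and 29.3% of the sites, with a difference between the single classes of -10.8 points (-17.9 to -2.66, adjusted p 0.0433). The C/EBPβ difference did not pass the threshold among distal sites (-11.5 points, adjusted p 0.0515) or with the leading GATA2 rows described below (-9.04 points, adjusted p 0.171). Of the sites with PU.1 in HP, 14 of 15, 23 of 24 and 79 of 81 also had it in MAC, as did 97% of all 10943 HP PU.1 peaks. Among sites without HP PU.1 the MAC share was 23.7% (16.7% to 31.9%) for GATA1 only, 37.5% (26.9% to 49%) for shared and 36.5% (31.4% to 41.8%) for GATA2 only sites. The MAC PU.1 list is the longest of the series.

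The GATA word was common in all classes and, over promoter and distal sites together, rarer at GATA2 only sites. AGATAA or TGATAA, on either strand, was present in 80.1% of GATA1 only peaks (95% interval 72.7% to 86.3%), 83.7% of shared peaks and 69.2% of GATA2 only peaks (64.6% to 73.6%). Windows of the same length 2 kb to either side held it in 28.1%, 27.4% and 30.9%, and the HP lists of C/EBPβ, PU.1, RUNX1 and GFI1B in 29.8%, 31.2%, 22.2% and 43.3% of peaks. The difference between GATA1 only and GATA2 only sites was 10.9 points (2.55 to 18.1, adjusted p 0.0458), and between shared and GATA2 only sites 14.4 points (5.12 to 21.8, adjusted p 0.0151). Neither passed the threshold with the longer word AGATAAG or AGATAAC, which was present in 47.3%, 51% and 45.5% of the 3 classes (adjusted p 0.901 and 0.559). Among distal sites the differences were 3.87 and 10.7 points, and neither passed the threshold there (adjusted p 0.616 and 0.109).

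The number of words gave larger differences. At least 2 GATA words stood in 41.1% of GATA1 only, 51.9% of shared and 23.7% of GATA2 only sites, against 5.48%, 4.81% and 6.1% of the flanking windows. The single classes differed by 17.4 points (8.63 to 26.3, adjusted p 7.4e-04) and shared from GATA2 only sites by 28.2 points (17.8 to 38.3, adjusted p 9.7e-07). On average a peak held 1.33, 1.61 and 1.01 words, and a flanking window 0.349, 0.341 and 0.394. A CTG followed after 7 or 8 bases by GATA, the arrangement read by complexes of TAL1 with GATA1, was present in 30.8% of GATA1 only, 28.8% of shared and 18.1% of GATA2 only sites, and in 7.19%, 8.65% and 7.28% of flanks. It overlaps the GATA word where its GATA is part of one. The single classes differed by 12.7 points (4.79 to 21.3, adjusted p 0.008), while shared and GATA2 only sites did not pass the threshold (adjusted p 0.057). The GATA word nearest to the peak centre lay a median of 15 bp from it in GATA1 only, 20 bp in shared and 23 bp in GATA2 only sites. AGATAA made up 64.9%, 59.3% and 71.7% of the words.

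**Figure D4:**
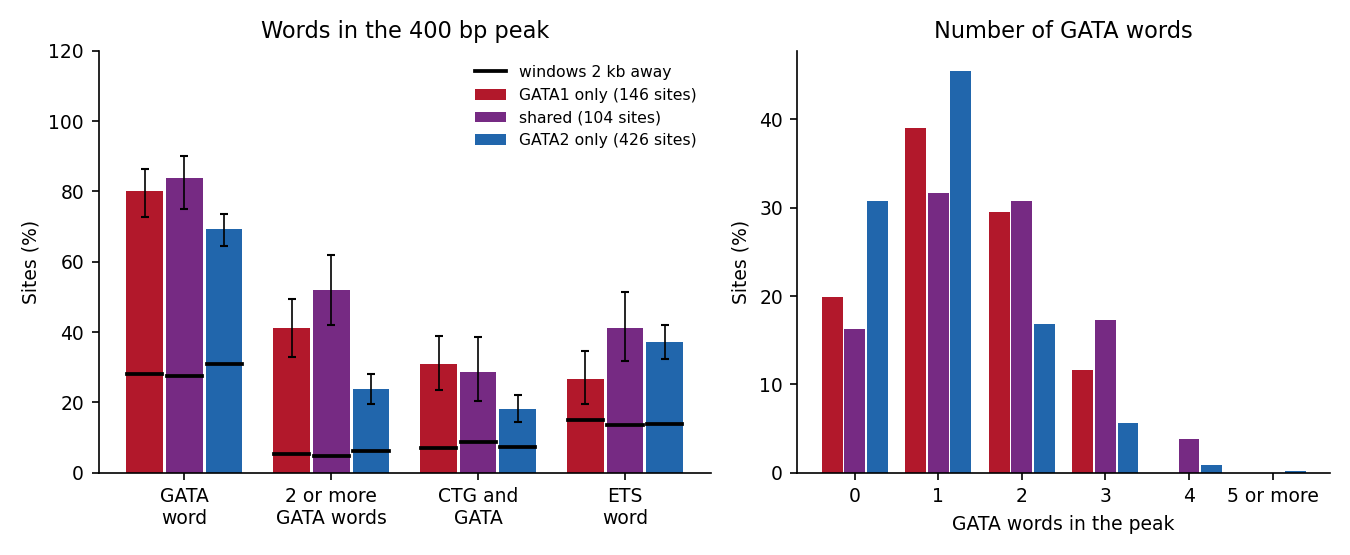
Left, share of peaks (%) with a GATA word, with 2 or more, with a CTG and GATA pair and with an ETS word, for 146 GATA1 only, 104 shared and 426 GATA2 only sites, with 95% Clopper-Pearson intervals and the share in windows 2 kb away as black lines. Right, share of peaks (%) by number of GATA words. GATA2 only sites have fewer peaks with 2 or more words (23.7% against 41.1% and 51.9%), and all classes stand above their flanks.

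For the words of the partner factors no pair of classes passed the threshold. The RUNX word (TGTGGT or TGCGGT) was present in 44.5% of GATA1 only, 37.5% of shared and 45.3% of GATA2 only sites, against 32.9%, 29.8% and 31.5% of flanks. The ETS word (CAGGAAG or CCGGAAG) was present in 26.7%, 41.3% and 37.1% of sites and in 15.1%, 13.5% and 14% of flanks. Its differences came closest to the threshold, with adjusted p 0.0685 between the single classes and 0.057 between shared and GATA1 only sites. The PU.1 word GAGGAAGT was present in 4.11%, 3.85% and 7.75% of sites and in 2.4%, 1.44% and 2.35% of flanks. The GFI1B word (AATCACNGC or AATCTCNGC) was present in 1.37%, 2.88% and 3.05%, where flanks had 1.37%, 1.92% and 2.82%. The KLF word (CCACACCC, CCACGCCC, CCCCACCC or CCCCGCCC) was present in 24.7%, 31.7% and 21.8%, where flanks had 16.1%, 14.9% and 14.2%. For AP-1 (TGAGTCA or TGACTCA) the shares were 6.85%, 8.65% and 8.45%, and for C/EBP (TTGCACAA, TTGCATAA, TTGCGCAA or TTGCGTAA) 1.37%, 1.92% and 2.35%. Flanks held the AP-1 word in 5.48%, 5.77% and 5.4% and the C/EBP word in 1.71%, 0.481% and 3.4%.

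Sites with a partner were set against sites without it. All 23 GATA1 only sites with RUNX1 held a RUNX word, as did 40 of 45 GATA2 only sites (88.9%) and 28 of 45 shared sites (62.2%), beside 79.1% of all HP RUNX1 peaks. Sites without RUNX1 held it in 34.1%, 40.2% and 18.6%, in the same order. The GATA word was present in 56.5% of the GATA1 only sites with RUNX1 and 84.6% of those without, in 82.2% and 84.7% of the shared and in 64.4% and 69.8% of the GATA2 only sites. At sites with GFI1B, the GFI1B word was found in 1 of 36, 3 of 56 and 3 of 64, where all HP GFI1B peaks had it in 20.2%, and the GATA word in 80.6%, 83.9% and 78.1%. Without GFI1B these shares were 0.909%, 0% and 2.76% for the GFI1B word and 80%, 83.3% and 67.7% for the GATA word. At sites with PU.1 the PU.1 word was found in 3 of 15, 3 of 24 and 18 of 81, beside 42.1% of all HP PU.1 peaks, and in 2.29%, 1.25% and 4.35% of sites without PU.1. The GATA word was present in 13 of the 15 GATA1 only sites with PU.1 and 79.4% of those without, in 62.5% and 90% of the shared and in 75.3% and 67.8% of the GATA2 only sites. These shares are descriptions of small subsets and were not tested.

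Promoter and distal sites were also read apart. Among distal sites, more than 2 kb from a coding TSS, the GATA word was present in 80% of GATA1 only (n = 115), 86.8% of shared (n = 76) and 76.1% of GATA2 only sites (n = 310), and the single classes differed by 3.87 points (adjusted p 0.616). Among promoter sites it was present in 80.6% (n = 31), 75% (n = 28) and 50.9% (n = 116), a difference of 29.8 points between the single classes that did not pass the threshold (adjusted p 0.0541; chosen after the data were seen). Whether the difference itself depends on the promoter was not tested. GFI1B was present at 25.2%, 60.5% and 17.7% of distal and at 22.6%, 35.7% and 7.76% of promoter sites, and the difference between the single classes passed the threshold in neither subset (adjusted p 0.203 and 0.318). MAC PU.1 was present at 23.5% of distal GATA1 only and 46.1% of distal GATA2 only sites, but at 58.1% and 53.4% of their promoter sites. At least 2 GATA words stood in 43.5% of distal GATA1 only and 27.7% of distal GATA2 only sites. The mean GC content was 53.8% ± 5.33 (SD over sites) for GATA1 only, 55.3% ± 6.73 for shared and 51.9% ± 6.74 for GATA2 only sites, which differed in all 3 pairs (permutation test, two-sided, adjusted p 0.00319 for the single classes, 0.0474 for shared against GATA1 only and 3.0e-05 for shared against GATA2 only, whose raw p of 1.0e-05 is the smallest that 100000 permutations can give).

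**Figure D5:**
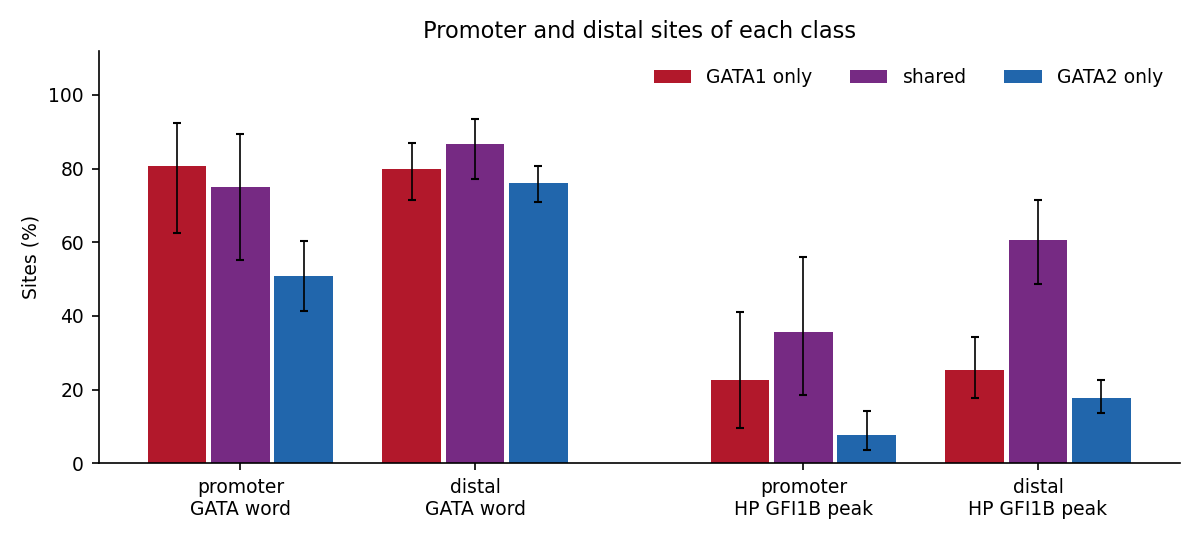
Share of promoter and distal sites (vertical axis, %) that hold a GATA word or overlap an HP GFI1B peak, by class, with 95% Clopper-Pearson intervals. The lowest GATA word share is that of GATA2 only promoter sites (50.9%), and the highest GFI1B share that of shared distal sites (60.5%).

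The order of rows in the deposited lists is not by position, and its meaning is not given in the sources used here. Shared sites were concentrated at the start of both lists. With the GATA1 list cut into 5 successive parts of 50 peaks, 34, 22, 16, 14 and 18 peaks were shared with GATA2. With the GATA2 list cut into 5 parts of 106 peaks, 39, 27, 14, 16 and 8 were shared with GATA1. The GATA word was present in 86%, 88%, 84%, 76% and 74% of the GATA1 parts and in 82.1%, 73.6%, 67.9%, 73.6% and 63.2% of the GATA2 parts. When the GATA2 list was limited to its 250 leading rows, the length of the GATA1 list, 73 sites were shared. Each factor then had 177 sites without a peak of the other among the rows used. The GATA1 only group of this split also held sites classed as shared above, whose GATA2 peak stood lower in the list. The single classes so formed still differed in 2 or more GATA words, in MAC PU.1 and in HP GFI1B (Fisher's exact test). GFI1B was 15.8 points higher in the GATA1 only group (adjusted p 0.00284). Part of that group were sites otherwise classed as shared, and 53.8% of all shared sites overlapped GFI1B. The value is therefore not one between the single classes as defined above. The threshold was no longer passed for HP PU.1 (-6.21 points, adjusted p 0.299) or for the presence of a GATA word (9.04 points, adjusted p 0.169). Nor was it passed for CTG with GATA (11.9 points, adjusted p 0.0538) or for MAC C/EBPβ (-9.04 points, adjusted p 0.171).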

How the data were processed

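Peak lists of 2 HP libraries were compared with the lists of the same and other stages. Per the study's methods, the authors trimmed reads with CutAdapt, aligned them to mm10 with Bowtie, kept unique positions, removed duplicates with Picard, called peaks with MACS against the input of the stage and refined them with polyPeak. Tool versions are not given in the sources used here. The deposited values are peak starts and ends in base pairs, with no score, so list lengths depend on the threshold chosen for each list. The submitters' processing notes also name bedtools.

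Sites, overlaps, TSS distances (26032 coding TSS, RefSeq, GRCm38) and words were computed with Python 3.11.15, NumPy 2.4.6, SciPy 1.17.1 and pysam 0.24.0, and plots with Matplotlib 3.10.9. A shared site was represented by its GATA1 peak. Shares were compared by Fisher's exact test, with a threshold of 0.05 after Benjamini-Hochberg adjustment, and programs were tested on simulated data. The rule for naming genes covered those of 6 lists, the genes with the most sites, 3 control loci and sites in all 6 HP lists. At the end of the leading 10 genes by sites, 37 genes with 2 sites tied and were not named by this rule. Other genes were named for a property stated with them, such as an overlap with an HB GATA2 peak, or were looked up afterwards. Of the listed genes, Ahsp and Tpsab1 had no coding match, and 1 gene is not reported here. The members and lists were chosen with earlier results of these data known.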

Additional observations from a re-analysis of the deposited data

How the results depend on the processing

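No paired analysis was possible because each factor had 1 list and no replicates, and no replicate could be left out. Of 192 values under alternatives, 155 kept their direction and side of the threshold (counts within 1.5 times), 27 lost the threshold, 3 changed sign and 7 counts moved further. The cause was not tested in any case. The shared class kept its excess of RUNX1 and GFI1B over both other classes under each alternative run, except that among promoter sites the excess over GATA1 only sites did not pass the threshold.

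Differences below are in percentage points, with the adjusted p of Fisher's exact test. The promoter share of GATA1 only minus GATA2 only sites changed sign, to 2.01 (0.844), when promoters reached 5 kb. The GATA word share of the single classes fell short without sites over 50% soft-masked (10.3, 0.0508), among distal sites (3.87, 0.616), with AGATAAG or AGATAAC (1.72, 0.901) and with the 250 leading GATA2 rows (9.04, 0.169). That of shared against GATA2 only sites fell short among distal sites (10.7, 0.109), with AGATAAG or AGATAAC (5.42, 0.559), with AGATAG and TGATAG added (8.69, 0.0953) and with the leading rows (7.94, 0.417). HP PU.1 fell short with a gap of 1 kb counted as shared (-8.52, 0.0574), without sites in a MES list (-8.66, 0.0511; shared against GATA1 only 10.4, 0.0757) and with the leading rows (-6.21, 0.299). HP GFI1B fell short without sites in a MES list (9.17, 0.0511), among distal sites (7.48, 0.203) and when GFI1B within 1 kb counted (8.91, 0.0544). CTG with GATA fell short with the leading rows (11.9, 0.0538), and MAC C/EBPβ with them (-9.04, 0.171) and among distal sites (-11.5, 0.0515).

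Promoter sites alone and the leading rows were added after the data were seen. With the leading rows, shared sites whose GATA2 peak stood lower in the list were counted as GATA1 only. Among the 31, 28 and 116 promoter sites, the single classes differed by 29.8 in the GATA word (0.0541), 19.3 in at least 2 words (0.184), 7.93 in CTG with GATA (1), 14.8 in HP GFI1B (0.318) and -6.95 in MAC C/EBPβ (1), and changed sign for HP PU.1 (0.612, adjusted p 1) and MAC PU.1 (4.62, adjusted p 1). Shared minus GATA1 only was 22.8 for RUNX1 (0.394), 13.1 for GFI1B (1) and 1.73 for PU.1 (1), and shared minus GATA2 only 24.1 for the GATA word (0.268), 25.4 for RUNX1 (0.0418) and 28 for GFI1B (0.025). Leaving aside the promoter share, the GATA word and the 4 HP factors between the single classes, 3 of 52 tests passed among promoter sites, these RUNX1 and GFI1B values included, against 16 of 54 over all sites.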
